A study of Mus musculus with 2 samples.

Results

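Sox genes encode transcription factors that bind the minor groove of DNA through an HMG box and bend it, and they fall into lettered subgroups by the likeness of that box. The SoxC genes, Sox4, Sox11 and Sox12, encode activators known from progenitors of the mesenchyme and the nervous system. In mouse limb buds SoxC genes are known to be needed for the survival of the mesenchyme and for the shaping of the skeleton. Sox8 belongs to the SoxE subgroup with Sox9, the master gene of cartilage, and Sox10, a gene of neural crest derivatives. Sox13 belongs to the SoxD subgroup with Sox5 and Sox6, whose proteins carry no known activation domain and act beside Sox9 in cartilage.

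The levels of these 5 genes, Sox4, Sox11, Sox12, Sox8 and Sox13, were described in total RNA from the limbs of mouse embryos. They were chosen by name and found in both gene tables by Ensembl identifier against GENCODE symbols, and they are 5 of 43346 Ensembl genes and 5 of 20 annotated Sox genes. The study holds 1 group, healthy embryos of strain B6NCrl at embryonic day 12.5 with no treatment and no altered allele named, and 2 biological replicates of it. Replicate 1 pooled the limbs of 88 embryos and replicate 2 those of 68 embryos, both of mixed sex, without a division into forelimb and hindlimb. With 1 group there is no condition to compare, so genes were compared within the limb and the 2 libraries with each other. The deposited expected counts, which are estimated reads per gene, summed to 29810026 in replicate 1 and 29938721 in replicate 2 with spike-ins included. Over Ensembl genes alone they summed to 28832310 in replicate 1 and 29249374 in replicate 2. All 7 limb mesenchyme markers examined reached 1 TPM (a level scaled by transcript length and library size) in each library. Their median level was 70.8 TPM, and the lowest of them, Hand2, a gene of the posterior limb bud, averaged 19.0 TPM. In bulk tissue, fewer cells of a type and less RNA per cell cannot be told apart, and which cells of the limb held these transcripts was not measured.

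The genes share the sequence that names the family. The 9 codons near the start of the HMG box are shown for 4 of the genes, of the SoxC, SoxE and SoxD subgroups. They encode the 9 residues by which the box was located, which all 20 Sox proteins carry. The residues are thus the same by choice, and bases could vary only between codons of the same residue. Of the 27 bases, 23 are the same in all 4 genes, and capitals mark the 4 positions that vary. They lie on the minus strand of mm10, each within a single coding exon, at chr12:27342232-27342258 (Sox11), chr13:28952815-28952841 (Sox4), chr17:25570196-25570222 (Sox8) and chr1:133385539-133385565 (Sox13).
Sox11: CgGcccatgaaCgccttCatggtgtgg
Sox4: CgGcccatgaaCgccttTatggtgtgg
Sox8: CgGcccatgaaTgccttCatggtgtgg
Sox13: AgAcccatgaaTgccttCatggtgtgg

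The whole box of Sox11 and Sox4 is shown because it is the stretch in which the reads of these SoxC genes are most alike. It covers 237 bases of the coding part, of which 212 are the same in both genes, and capitals mark the 25 that vary. The boxes lie on the minus strand of mm10 at chr12:27342034-27342270 (Sox11) and chr13:28952617-28952853 (Sox4).
Sox11: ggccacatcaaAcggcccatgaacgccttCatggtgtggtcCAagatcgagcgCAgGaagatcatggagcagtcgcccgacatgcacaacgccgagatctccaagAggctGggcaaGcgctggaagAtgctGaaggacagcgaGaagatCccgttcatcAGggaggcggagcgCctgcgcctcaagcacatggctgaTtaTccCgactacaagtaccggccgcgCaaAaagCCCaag
Sox4: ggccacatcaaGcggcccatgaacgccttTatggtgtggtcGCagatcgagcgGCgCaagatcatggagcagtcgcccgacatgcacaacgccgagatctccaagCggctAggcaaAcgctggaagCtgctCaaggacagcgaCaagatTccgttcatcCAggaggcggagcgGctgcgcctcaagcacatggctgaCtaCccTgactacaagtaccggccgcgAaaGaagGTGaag

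Translated, the boxes of Sox4 and Sox11 share 74 of 79 residues (93.7%). Outside the box these proteins are less alike, with 42.4% identity over the whole protein, while their last 33 residues are 81.8% identical. The box of Sox8 differs from that of Sox9 at a single residue (78 of 79 the same), and the box of Sox13 shares 74 of 79 residues with Sox5. The proteins are 440 residues long for Sox4, 395 for Sox11, 314 for Sox12, 464 for Sox8 and 613 for Sox13.

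Despite this likeness, no stretch of 100 nt was identical between any of the 10 pairs of these genes, and none was shared on the same strand with any other gene. The best ungapped match over 100 nt between Sox4 and Sox11 had 93 identical bases and lay inside the box. The longest run identical in Sox4 and Sox11 was 48 nt. In the deposited tables the posterior SD of the count, which is above 0 when reads are divided among genes, was 0 in both libraries for 4 of the 5 genes, as it was for 66.4% of 14507 detected genes. The exception was Sox4.

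Sox11 was the highest of the 5 genes, at 202.49 TPM in replicate 1 and 229.79 TPM in replicate 2, from 31149 expected counts in replicate 1 and 35594 in replicate 2. Sox4 followed at 109.44 TPM in replicate 1 and 109.03 TPM in replicate 2, from 9627.05 and 9657.53 expected counts. Both are single-exon genes, Sox11 at chr12:27334264-27342574 and Sox4 at chr13:28948919-28953713, and both stood among the higher protein-coding genes of the limb. Of 12702 protein-coding genes detected, which means at least 1 TPM in both libraries, 5.3% ranked above Sox11 and 11.8% above Sox4. Sox12, the third SoxC gene, at chr2:152393611-152398063, lay far lower, at 12.85 TPM in replicate 1 and 14.17 TPM in replicate 2, with 62.7% of detected protein-coding genes above it.

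Sox8, at chr17:25565892-25570686, a gene of 3 exons, had 9.63 TPM in replicate 1 and 9.17 TPM in replicate 2. Sox13, at chr1:133382303-133424377, a gene of 14 exons, was the lowest, at 6.59 TPM in replicate 1 and 4.76 TPM in replicate 2. Sox8 rested on 384 expected counts in replicate 1 and 367 in replicate 2, and Sox13 on 354 and 255. The exact Poisson 95% intervals of the Sox13 counts were 318.1 to 392.9 in replicate 1 and 224.7 to 288.3 in replicate 2 and did not overlap. Those of Sox11, 30800 to 31500 in replicate 1 and 35230 to 35970 in replicate 2, did not overlap either. The intervals of Sox4, Sox12 and Sox8 overlapped between the libraries. These intervals cover counting error only. All 5 genes were detected, against 33.5% of all Ensembl genes.

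**Figure D1:**
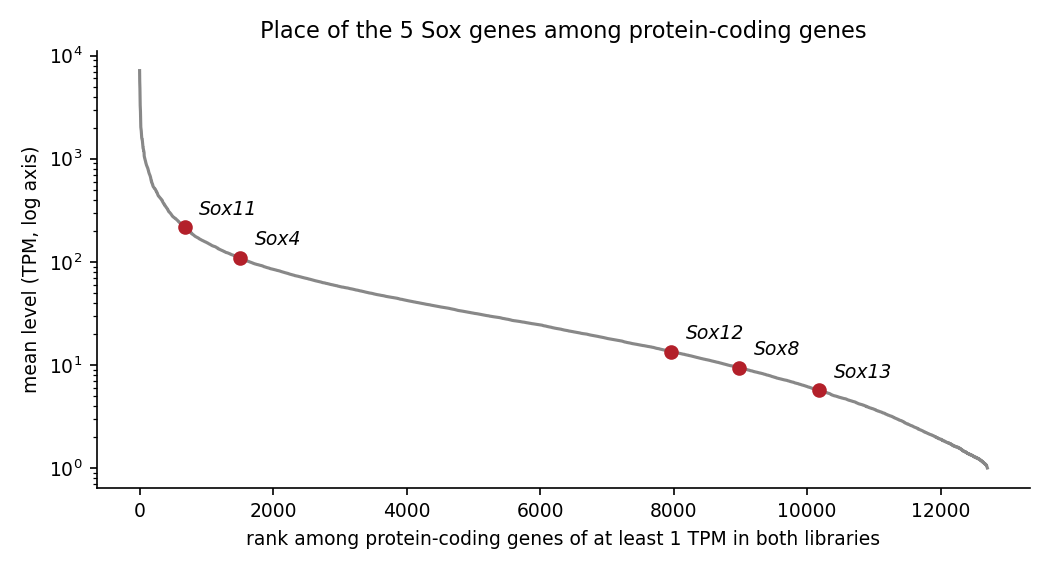
The mean level of every detected protein-coding gene (TPM, log axis) is drawn against its rank, with the 5 Sox genes as points. Sox11 and Sox4 sit on the upper part of the curve, above 100 TPM, and Sox12, Sox8 and Sox13 on the lower part, below 15 TPM.

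The order of the 5 genes was the same in both libraries, and each step of it was larger than the spread between replicates, in that the levels of neighbours did not overlap over the 2 libraries and their deposited intervals did not overlap within either library. Across libraries the intervals of Sox8 and Sox13 just met, since that of Sox8 began at 7.87 TPM in replicate 2 and that of Sox13 ended at 7.88 TPM in replicate 1. Sox11 was 1.97-fold above Sox4 (log2 ratio 0.98 ± 0.13, SD, n = 2). Sox4 was 8.04-fold above Sox12 (log2 ratio 3.01 ± 0.10), the widest step. Sox12 was 1.43-fold above Sox8 (0.52 ± 0.15), and Sox8 1.67-fold above Sox13 (0.74 ± 0.28). These ratios are of levels per transcript length. In expected counts, without the length, the order was also Sox11, Sox4, Sox12, Sox8 and Sox13.

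Among the 36 limb transcription factors examined for scale, 2 had a higher mean level than Sox11. The nearest to Sox11 were Hoxa10, a gene of limb patterning, at 236 ± 16.7 TPM and Prrx2, a gene of the limb mesenchyme, at 166 ± 6.8 TPM. Those nearest to Sox4 were Hoxd12, a distal Hox gene, at 101 ± 11.6 TPM and Shox2, a gene of proximal limb growth, at 85.4 ± 6.38 TPM. Sox12 lay between Sall1 (16.8 ± 2.33 TPM), a zinc finger gene, and the forkhead gene Foxc1 (9.84 ± 0.714 TPM), with 28 of the 36 above it. Sox8 lay nearest to Foxc1 and to Lmx1b, the gene of dorsal limb identity (7.69 ± 0.643 TPM). Sox13 lay nearest to Foxc2 (6.08 ± 1.4 TPM), a forkhead gene, and to Tbx2 (7.49 ± 1.35 TPM), a T-box gene.

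Set in their family, the SoxC genes summed to 324.8 TPM in replicate 1 and 353.0 TPM in replicate 2, of 673.9 and 705.2 TPM for all 20 Sox genes. Their share of the family's level was 48.2% in replicate 1 and 50.1% in replicate 2 (49.1% ± 1.32, SD, n = 2). Within SoxC, Sox11 held 62.3% and 65.1%, Sox4 33.7% and 30.9%, and Sox12 3.96% and 4.01%. Both libraries therefore divided the SoxC level in the same order, with Sox12 a small part of it. In expected counts, which favour long transcripts such as the 8311 nt of Sox11, the SoxC share was 66.7%.

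Sox11 stood at the level of Sox9, which had 207.74 TPM in replicate 1 and 206.29 TPM in replicate 2. The ratio of Sox11 to Sox9 was below 1 in replicate 1 and above 1 in replicate 2 (log2 0.06 ± 0.14), so the top place was not separated from the next beyond the spread. Sox4 was 1.47-fold above Sox5 (72.16 and 76.32 TPM), the SoxD partner of Sox9, and Sox9 was 1.89-fold above Sox4. In expected counts, without the length, the mean log2 ratios were 1.08 for Sox11 over Sox9, 1.92 for Sox4 over Sox5 and -0.70 for Sox4 over Sox9. Sox12 was below Sox6, the other cartilage SoxD gene (16.06 and 19.03 TPM), which was 1.29-fold higher. Sox8 did not separate from Sox17, a SoxF gene of endothelium and endoderm (6.87 and 6.56 TPM), since their deposited intervals overlapped. Sox13 separated neither from Sox17 nor from Sox7, another SoxF gene (5.44 and 5.67 TPM). Sox18, also a SoxF gene, stood higher, at 19.27 TPM in replicate 1 and 18.93 TPM in replicate 2, 1.41-fold above Sox12. In expected counts, without the length, Sox12 was instead above Sox18 (mean log2 ratio 0.99). Of the 11 neighbouring steps among the 12 detected Sox genes, 6 were beyond the spread in the same sense.

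**Figure D2:**
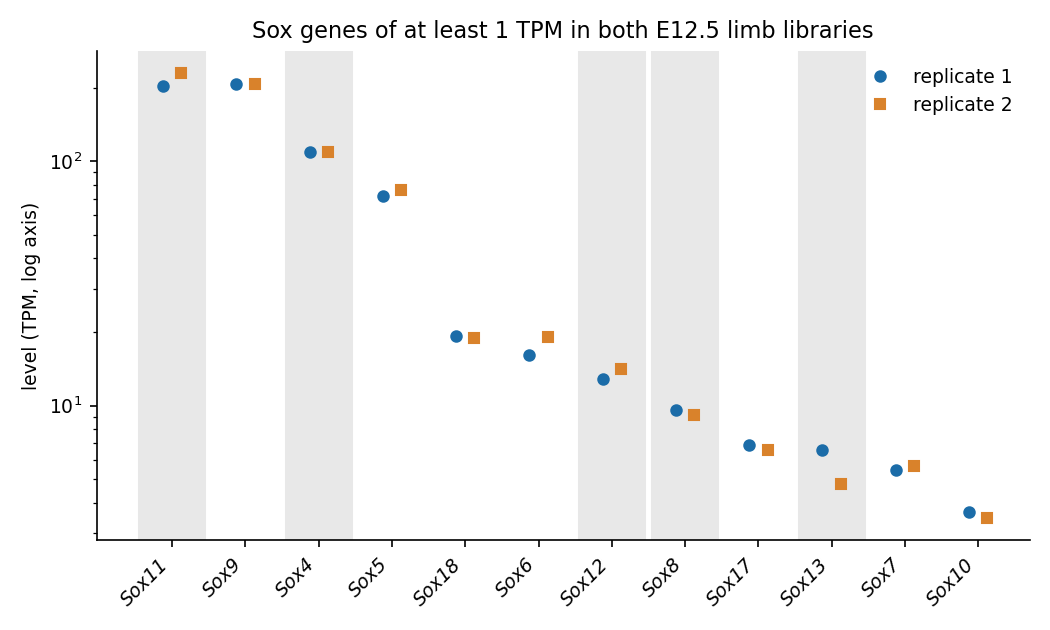
Levels (TPM, log axis) of the 12 detected Sox genes are drawn for replicate 1 (circles) and replicate 2 (squares), in the order of their means, with grey bands behind the 5 genes described. Sox11 lies beside Sox9 at the top, and the widest gap between replicates among the 5 is that of Sox13, at 6.59 TPM in replicate 1 and 4.76 TPM in replicate 2.

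Sox8 and Sox13 were each a minor part of their own subgroup. Sox8 made up 4.36% of the SoxE level in replicate 1 and 4.19% in replicate 2, with Sox9 21.8-fold above it and Sox10, at 3.66 and 3.47 TPM, 2.59-fold below it. Sox13 made up 6.95% of the SoxD level in replicate 1 and 4.75% in replicate 2, with Sox5 13.0-fold and Sox6 3.08-fold above it. The other 15 Sox genes included 7 detected ones. The 8 that were not detected stayed at or below the 0.79 TPM of Sox2, a SoxB1 gene of neural and pluripotent cells, in replicate 2, and Sox1 and Sry were listed at 0 in both libraries.

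Sox4 shares its locus with Gm26735, annotated as a long intergenic noncoding RNA on the opposite strand at chr13:28943048-28951671. The exons of the 2 genes overlap over 2616 nt, which is 54.6% of the Sox4 transcript and 98.8% of the Gm26735 transcript, all of it 3′ of the Sox4 coding part. Only 33 nt of Gm26735 lie outside Sox4. Gm26735 was given 412.95 expected counts in replicate 1 and 440.47 in replicate 2, or 8.64 and 9.16 TPM. The counts of the pair summed to whole numbers, 10040 and 10098, and both genes carried the same posterior SD, 70.96 in replicate 1 and 74.86 in replicate 2. Reads were therefore divided between 2 genes on opposite strands, and reads of Gm26735 and Sox4 cannot be told apart over the overlap. With every such read given to Sox4, an alternative chosen after seeing the data, Sox4 would have 114 TPM in both libraries, 1.04-fold its deposited level in replicate 1 and 1.05-fold in replicate 2. At that upper end Sox4 stayed between Sox9 and Sox5. The opposite division, with shared reads given to Gm26735, would lower Sox4 and was not tested.

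**Figure D3:**
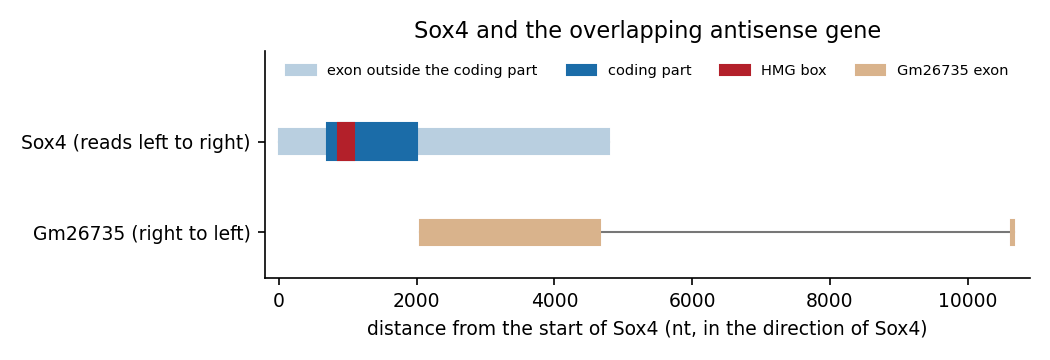
The exons of Sox4 and of the opposite-strand gene Gm26735 are drawn to scale as distance from the start of Sox4 (nt, in the direction of Sox4). The 2616 nt that they share lie to the right of the coding part and of the HMG box.

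The start of Sox8 overlaps an antisense gene, 2810468N07Rik, at chr17:25570358-25575043, by 329 nt in GENCODE M21, of which 165 nt are coding in Sox8. This gene had 120 expected counts in replicate 1 and 139 in replicate 2, or 5.12 and 5.9 TPM. Both genes had a posterior SD of 0 in both libraries, so no reads were recorded as divided between them. Whether the older annotation behind the counts had the same overlap was not tested.

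Of the 3 genes with several transcripts, Sox12 had the shares that differed most between the libraries. Sox12 has 2 annotated transcripts with the same coding part of 942 nt. The unspliced Sox12-202 held 88.28% of the gene's level in replicate 1 and 63.82% in replicate 2, and Sox12-201, which lacks a stretch of 264 nt beginning 152 nt after the coding part, held 11.72% and 36.18%. The deposited intervals of Sox12-201 overlapped between the libraries, at 0.198 to 3.86 TPM in replicate 1 and 2.7 to 6.99 TPM in replicate 2. The removed stretch begins with AC and ends with AG on the Sox12 strand. Sox8 was divided alike in both libraries, with 62.69% and 62.42% in Sox8-201, which carries the full coding part of 1392 nt, and 37.31% and 37.58% in the shorter Sox8-202. Sox8-203 was listed at 0 TPM in both libraries, although in posterior mean TPM it held 6.98% of the gene in replicate 1 and 4.21% in replicate 2.

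For Sox13, the 2 main transcripts differ in their coding length, 1839 nt in Sox13-205 and 1512 nt in Sox13-203. Sox13-205 held 41.75% of the gene's level in replicate 1 and 44.38% in replicate 2, and Sox13-203 held 40.84% and 36.21%. A retained-intron transcript, Sox13-204, held 13.61% and 19.41%, from 11.05 and 11.48 expected counts. Another, Sox13-202, held 3.8% in replicate 1 and was listed at 0 in replicate 2, and Sox13-201 was listed at 0 in both, with 3.68% and 2.39% in posterior mean TPM. Sox4 and Sox11 have a single annotated transcript.

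**Figure D4:**
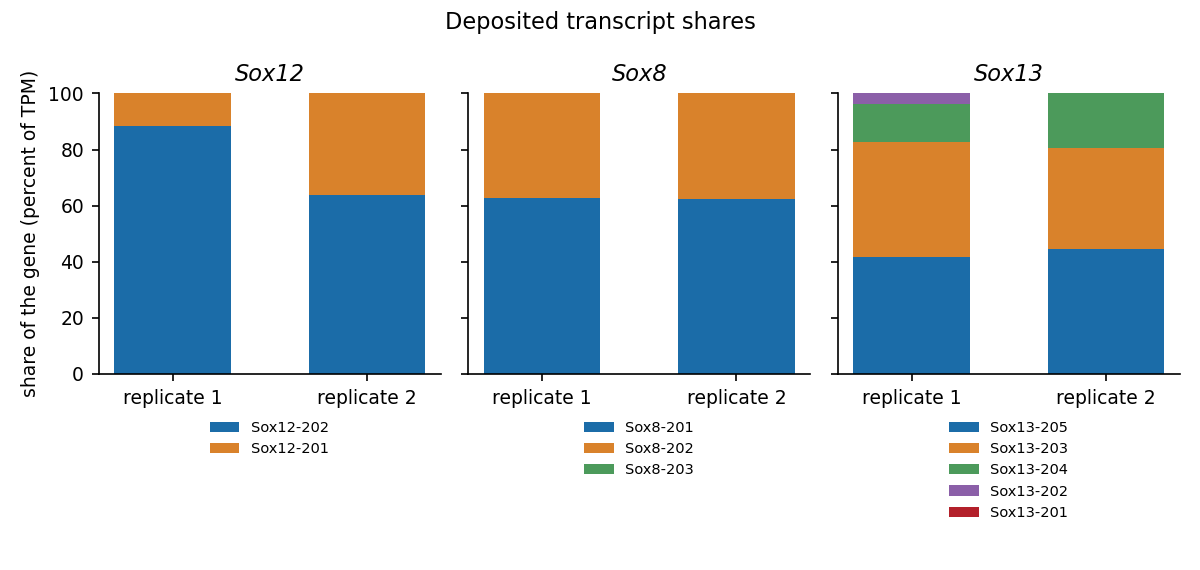
Stacked bars give the share of each gene's level (percent of TPM) held by its transcripts in replicate 1 and replicate 2, for Sox12, Sox8 and Sox13. The bars of Sox8 are nearly the same, at 62.69% and 62.42% for Sox8-201, while Sox12-202 covers 88.28% of the first Sox12 bar and 63.82% of the second.

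Between the libraries, the counts of the 5 genes per library total differed by at most 1.41-fold, in Sox13. The biological coefficient of variation over 16488 genes was 6.98%. The SDs of the TPM values were 8.93% of the mean for Sox11, 0.265% for Sox4, 6.91% for Sox12, 3.46% for Sox8 and 22.8% for Sox13. These measures are unlike, since the SDs include counting error and the biological coefficient of variation leaves it out. The log2 ratio of replicate 1 to replicate 2 was 0.02 for Sox4, 0.09 for Sox8 and -0.11 for Sox12, with adjusted p-values of 0.695, 0.679 and 0.264 (exact binomial test on library totals, Benjamini-Hochberg over 18580 genes). The same exact binomial test gave Sox11 a ratio of -0.17, lower in replicate 1, with an adjusted p of 1.33e-50, and Sox13 a ratio of 0.49, higher in replicate 1, with an adjusted p of 0.00049. This test compares the 2 libraries, not conditions, and does not cover the spread between replicates.

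With a fold of at least 2 required as well, the exact binomial test called 0 of the 5 genes, against 1.85% of all genes tested (343 of 18580). With no fold limit it called 2 of 5, Sox11 and Sox13, against 16.4% (3048 genes). edgeR's exact test, which takes its spread from the same 2 libraries, called none of the 5 at an adjusted p under 0.05. With the common spread, a setting chosen after seeing the data, it called 232 genes (1.25%). In that test 1312 of the 18580 genes had an unadjusted p under 0.05. Sox13 was the only one of the 5 among them, with an adjusted p of 0.336. With gene-wise spread edgeR's exact test called 0 genes, and 173 genes, none of them among the 5, had an unadjusted p under 0.05. Scaling to the spike-ins moved the median log2 ratio of all genes to -0.51. The ratios of Sox4, Sox8 and Sox13 then turned negative, at -0.51, -0.44 and -0.031, all of them at or above that median. Those of Sox11 and Sox12 were below it, at -0.70 and -0.63. With this scaling the exact binomial test gave adjusted p-values of 3.19e-130 for Sox4, 9.26e-24 for Sox12, 5.84e-05 for Sox8 and 0.841 for Sox13. That of Sox11 was again under 0.05, and none of the 5 was called with the fold limit.

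**Figure D5:**
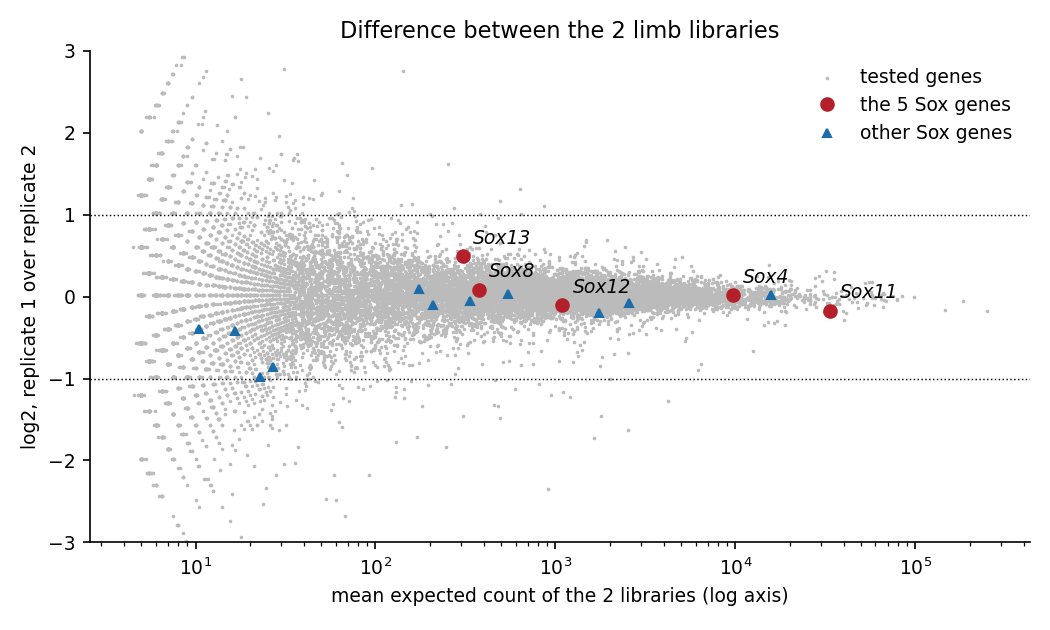
The log2 ratio of replicate 1 to replicate 2 is drawn against the mean expected count (log axis) for the tested genes, with the 5 Sox genes as red circles and the other Sox genes as blue triangles. All 5 lie inside the dotted lines of a 2-fold difference, with Sox13 highest at 0.49 and Sox11 lowest at -0.17, and 39 genes fall outside the axis.

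Markers of other cell types moved between the libraries beside these values. All 9 cartilage markers were higher in replicate 1 (5 of them called with the fold limit, against 1.85% of all genes tested), with summed levels of 877.0 TPM in replicate 1 and 727.8 TPM in replicate 2. Of 8 neuron markers, 7 were higher in replicate 2 (3 called, against the same 1.85%). The 8 summed to 53.97 TPM in replicate 1 and 73.02 TPM in replicate 2. The widest ratios were those of Elavl3 (0.01 and 0.17 TPM) and Prph (0.16 and 3.94 TPM), from 1 and 5 expected counts in replicate 1. Gap43, the highest neuron marker, was higher in replicate 1, at 24.42 TPM against 22.63 TPM in replicate 2. Of the leukocyte markers, 4 of 5 were higher in replicate 1, with sums of 37.03 TPM in replicate 1 and 29.81 TPM in replicate 2. The 1 called was Cd3g, from 15 expected counts in replicate 1 and 3 in replicate 2. All 5 ectoderm markers were higher in replicate 1 (sums of 340.8 TPM in replicate 1 and 317.5 TPM in replicate 2) and 6 of 7 limb mesenchyme markers were higher in replicate 2 (873.1 and 923.2 TPM), with none of either list called with the fold limit. Endothelium markers summed to 203.9 TPM in replicate 1 and 199.4 TPM in replicate 2, with 5 genes higher in replicate 1 and 2 in replicate 2. Muscle markers summed to 489.0 and 472.5 TPM, with 3 genes higher in replicate 1 and 1 in replicate 2. No gene of either list was called with the fold limit. Schwann cell precursor markers summed to 48.34 and 52.1 TPM, with 4 genes higher in each library. Sox13 was thus higher in the library with larger sums for cartilage, leukocytes and ectoderm, and slightly larger ones for endothelium and muscle. Sox11 was higher in that with larger sums for neurons and mesenchyme. The Schwann cell precursor sum was also larger there, but the median log2 ratio of that list was 0.04, toward replicate 1. The widest gap in that list was that of Fabp7, at 2.42 TPM in replicate 1 and 7.04 TPM in replicate 2. The part of these cells in either difference was not tested. The richest 100-nt window of GC was 88% in Sox13 and 80% in Sox11, against a median of 73% over 13561 genes. Genes within 2 points of either had a median log2 ratio of 0.02. The lower and upper deciles were -0.26 and 0.22 for genes near Sox13, and -0.15 and 0.23 for genes near Sox11. Sox13 and Sox11 lay outside these bounds, and a part of GC in their differences was not tested.

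RNA of several cell types was thus in the same tissue as these Sox transcripts. The highest and lowest markers averaged 411 TPM (Col2a1) and 2.67 TPM (Snorc) for cartilage, 23.5 TPM (Gap43) and 0.09 TPM (Elavl3) for neurons, and 21.2 TPM (Ngfr) and 0.365 TPM (S100b) for Schwann cell precursors. They averaged 66.5 TPM (Egfl7) and 6.55 TPM (Robo4) for endothelium, 16.0 TPM (C1qb) and 0.06 TPM (Cd3e) for leukocytes, 127 TPM (Krt14) and 23.1 TPM (Trp63) for ectoderm, and 344 TPM (Actc1) and 0.35 TPM (Pax7) for muscle. The highest mesenchyme marker was Msx1, at 395 TPM.

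Genes named in the literature as regulated by SoxC factors, or as acting with them, were present at the same time. All 6 in that list were detected. They were Ctnnb1, which encodes beta-catenin, at 518.66 TPM in replicate 1 and 518.33 TPM in replicate 2, the Hippo pathway gene Tead2 at 268.12 and 267.68 TPM, the Polycomb gene Ezh2 at 132.83 and 131.88 TPM, the joint gene Gdf5 at 48.83 and 55.67 TPM, and the neuronal genes Dcx at 8.49 and 7.43 TPM and Tubb3 at 7.51 and 12.17 TPM. With no fold limit, the exact binomial test called 3 of the 6, Dcx higher and Gdf5 and Tubb3 lower in replicate 1, against 16.4% of all genes tested. The median log2 ratio of the list was -0.02, against 0.01 over all genes tested.

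Of 8 possible partner factors, 4 were detected, all of them TCF/LEF genes of Wnt signalling. Tcf7l2 had 157.8 TPM in replicate 1 and 156.79 TPM in replicate 2, Lef1 52.14 and 52.57 TPM, Tcf7l1 47.99 and 41.54 TPM, and Tcf7 11.23 and 10.62 TPM. The 4 class III POU genes, whose proteins pair with SoxC factors in neural cells, lay between the 0.08 TPM of Pou3f4 and the 1.03 TPM of Pou3f1. With no fold limit, the exact binomial test called 3 of the 7 that were tested, all higher in replicate 1 (Tcf7l1, Tcf7l2 and Pou3f3), against 16.4% of all genes tested. The median log2 ratio of those 7 was 0.11, against 0.01 over all genes.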

How the data were processed

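Values came from deposited tables of total RNA sequencing, made from 10 ng of RNA above 200 nt per library. Per the file headers, 4 kinds of value were used. The deposited expected counts are estimated reads per gene or transcript, whole or not. The deposited TPM values are levels per length that sum to a constant with the spike-ins counted in, and the deposited FPKM values are reads per length. The deposited percent values are the part of a gene held by a transcript. The deposited credibility intervals (signal) belong to the posterior mean TPM, so a TPM can lie outside its own interval, as that of Sox11 did. Text files deposited beside the tables name mm10 and GENCODE M4. The sources used here do not give the aligner, the quantifier or the strand setting.

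The tables held 69691 rows, with 43346 Ensembl genes, 97 spike-ins and 26248 numeric identifiers. GENCODE M21, on the same assembly, gave symbols, coordinates and sequences, with 42462 genes matched. The spike-ins took 977680 and 689305 counts. The binomial test scaled libraries by their totals over Ensembl genes, 28832310 and 29249374. Expected counts were rounded for count tests, and genes with at least 10 counts in sum were tested, with calls at a Benjamini-Hochberg adjusted p under 0.05. Log ratios of levels added 0.1 TPM. The quasi-likelihood test of edgeR cannot be fitted with 1 library on each side and was not run. The coefficient of variation was estimated by estimateDisp (edgeR, TMM) from genes with 10 or more counts in each library. The 2 libraries differed by more than sampling noise (chi-square over degrees of freedom 6.61) and were not a duplicate deposit. The labels call them biological replicates and name separate pools.

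Neighbours in level were called apart where their levels did not overlap over the libraries and their intervals did not overlap within either library. The text names the 5 genes, every detected Sox gene, the pair of limb factors nearest in level to each of the 5, and every gene of the lists of SoxC-linked genes and partners. Single marker genes, Sox2, Sox1 and Sry were named after their values were seen. Members and lists were chosen with earlier results of these data known. Alternatives changed scaling, filter, unit, pseudocount and test, and left out each replicate. Scripts were tested on simulated data. The software was Python 3.11.15 (pandas 2.3.3, numpy 2.4.6, matplotlib 3.10.9, scipy 1.17.1) and R 4.3.3 (DESeq2 1.42.0, edgeR 4.0.16). The sequence of the Sox12 box is not reported here.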

Additional observations from a re-analysis of the deposited data

How the results depend on the processing

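The 5 genes were detected at limits of 0.5 and 1 TPM, in FPKM, in posterior mean TPM and without either replicate, and 4 of them at a limit of 5 TPM, which replicate 2 of Sox13 missed. Their order was the same in TPM, FPKM, posterior mean TPM and expected counts. Expected counts without length scaling gave log2 ratios of 1.79 for Sox11 over Sox4, 3.15 for Sox4 over Sox12, 1.53 for Sox12 over Sox8 and 0.32 for Sox8 over Sox13, and a SoxC share of 66.7%. In TPM, leaving out replicate 1 or 2 gave the same pairs log2 ratios of 0.89 to 1.07, 2.94 to 3.08, 0.41 to 0.62 and 0.54 to 0.93. The share of Sox8-201 was 60.0% in posterior mean TPM and 85.4% in counts, that of Sox13-205 39.7% and 54.2%, and that of Sox13-203 34.9% in posterior mean TPM.

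Between the libraries, the exact binomial test called 343 genes, 1241 with spike-in scaling (86 higher and 1155 lower in replicate 1, against 156 and 187), 75 with at least 100 counts and 3048 with no fold limit, where 2 of the 5 genes were called. edgeR's exact test with gene-wise spread called 0 genes. The log2 ratio of Sox4 was -0.0016 with DESeq2 size factors and -0.51 with spike-in scaling, under which those of Sox8 and Sox13 were -0.44 and -0.031. The cause of these changes was not tested. The counts behind Sox8 and Sox13, of 384 and 354 in replicate 1 and 367 and 255 in replicate 2, limit the precision of their levels and of their transcript shares.

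No paired analysis was possible because the labels give 1 group only.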
